A study of Mus musculus with 28 samples.

Results

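The genes described here are 8 genes that sense cellular sterol or move it into and out of the cell: Srebf2, Insig1, Insig2, Scap, Mylip, Abca1, Abcg5 and Abcg8. They were chosen by name for their roles, 8 of 35928 gene symbols in the transcript quantification of liver and pancreas and 8 of 24823 in the gene table of liver and lung, and all 8 were found in both. The mice carried human APOBEC3B fused to turboGFP under a tetracycline-responsive element at the ColA1 locus (TetO-A3B-tGFP). In the mice called A3B this transgene was combined with CAGs-rtTA3, a driver that is active throughout the adult body, so the cell type that expresses A3B is not restricted, and doxycycline food was given to adults of 4 weeks. Controls lacked the driver and had the A3B transgene alone, apart from the exceptions below.

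Total RNA of 28 tissue samples was sequenced in 2 sets. Set 2 holds livers of 6 A3B mice (44, 48, 49, 125, 137 and 153) and 2 controls (45 and 168), and pancreases of 6 A3B mice (44, 49, 53, 125, 137 and 153) and the same 2 controls, all labelled 10 days of doxycycline. Set 1 holds livers of A3B mice 23 and 28 (14 days) and 70 (10 days) against controls 11, 91 and 92, and lungs of A3B mice 69, 70 and 74 (10 days) against controls 87, 88 and 91, with every control labelled 15 days. Groups were taken from the sample titles. The genotype label goes against the title for A3B pancreases 44 and 137, labelled with the A3B transgene only, for control pancreases 45 and 168, labelled with both transgenes, and for control liver 11, labelled with both transgenes. Control lung 87 is labelled with the driver only. The study's mouse list gives set 1 controls other than lung 87 as not fed doxycycline, and a legend of the study describes the set 2 controls in the same way, whereas the sample labels and the study's methods give doxycycline to controls that carry 1 of the 2 transgenes. Where controls had none, an effect of the transgene and an effect of doxycycline cannot be told apart. In set 1 human APOBEC3B stood at 705 to 1705 TPM (a transcript level scaled for length and for the total of the library) in the A3B livers, at 90.6 to 281 TPM in the A3B lungs and at no more than 0.53 TPM in any control, liver 11 included. The estimated counts of a library in set 2 added up to 65161064 at the least and 118976013 at the most.

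Sterol level is read in the membrane of the endoplasmic reticulum. SCAP carries the transcription factor SREBP2, the product of Srebf2, to the Golgi for cleavage when sterol is low, and the INSIG proteins hold SCAP back when sterol is high. Cleaved SREBP2 switches on cholesterol synthesis and uptake, and Insig1 is among its targets. Liver X receptors (LXR) respond to oxysterols and switch on Abca1, Abcg5, Abcg8 and Mylip. ABCA1 loads cholesterol onto apolipoprotein A-I, ABCG5 and ABCG8 form a heterodimer that exports sterols into bile and gut, and MYLIP is a ubiquitin ligase that marks lipoprotein receptors for degradation. Insig2 has separate start sites with different noncoding leading exons, and a liver-selective Insig2 transcript is known to be lowered by insulin.

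The sequence before the start sites of these genes is shown because the SREBP2 and LXR targets were compared with each other, and for Insig2 because its 2 start regions behaved differently by tissue. The sequences are from RefSeq (GRCm38.p6, the build of the files), 5′ to 3′ on the strand of the gene, and they stop where the GENCODE M21 transcript begins. Capitals mark an E-box (CACGTG), an NF-Y box (CCAAT), an Sp1 box (GGGCGG) or the letters TCACCCCA, each on either strand.
Srebf2, chr15:82147019-82147180, plus strand: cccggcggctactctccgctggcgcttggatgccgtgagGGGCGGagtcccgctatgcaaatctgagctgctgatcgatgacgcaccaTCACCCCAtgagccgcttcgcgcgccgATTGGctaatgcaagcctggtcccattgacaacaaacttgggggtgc
Insig1, chr5:28071162-28071362, plus strand: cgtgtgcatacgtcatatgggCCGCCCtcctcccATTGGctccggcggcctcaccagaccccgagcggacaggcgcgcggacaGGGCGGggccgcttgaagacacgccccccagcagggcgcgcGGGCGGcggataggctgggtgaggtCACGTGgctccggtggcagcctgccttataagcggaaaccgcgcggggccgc
Insig2 upstream start, chr1:121332590-121332839, minus strand: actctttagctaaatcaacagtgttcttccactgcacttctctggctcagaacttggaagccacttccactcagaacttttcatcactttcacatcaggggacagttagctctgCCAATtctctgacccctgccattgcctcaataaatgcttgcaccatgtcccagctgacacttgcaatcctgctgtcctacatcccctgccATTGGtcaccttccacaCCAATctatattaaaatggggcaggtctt
Insig2 downstream start, chr1:121328025-121328274, minus strand: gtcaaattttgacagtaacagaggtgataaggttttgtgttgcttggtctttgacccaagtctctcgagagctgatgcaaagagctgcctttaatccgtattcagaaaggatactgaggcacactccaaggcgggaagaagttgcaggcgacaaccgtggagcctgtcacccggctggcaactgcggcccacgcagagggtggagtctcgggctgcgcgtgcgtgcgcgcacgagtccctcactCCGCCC
Abca1, chr4:53159896-53160145, minus strand: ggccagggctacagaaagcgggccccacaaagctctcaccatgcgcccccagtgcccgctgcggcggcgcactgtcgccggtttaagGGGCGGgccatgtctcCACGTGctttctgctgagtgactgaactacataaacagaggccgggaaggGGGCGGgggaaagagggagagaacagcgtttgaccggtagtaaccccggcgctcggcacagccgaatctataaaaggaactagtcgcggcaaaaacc
All 8 genes matched RefSeq by symbol, with 12 windows of 300 bases (250 before and 50 after a start site). The sterol regulatory element TCACCCCAC was in none of the 12, nor was TCACNCCAC, against 0.551% and 1.24% of all 32851 windows. The 8 letters TCACCCCA, searched only after the Srebf2 sequence had been seen, lie 162 bases before the RefSeq start of Srebf2 and are in 1.56% of all windows. The Insig1 window has an E-box 101 bases and an NF-Y box 216 bases before its start, the Abca1 window has an E-box at 147 bases, and both Scap windows hold the same E-box, 40 bases before the second start. The other windows have no E-box. NF-Y boxes are also in windows of Srebf2, Mylip, Abcg5 and Abcg8 and in the upstream Insig2 window. An E-box is in 7.15% of all windows, an NF-Y box in 37.4% and an Sp1 box in 35.7%. The upstream Insig2 window has 3 NF-Y boxes and no Sp1 box, whereas each downstream Insig2 window has 1 Sp1 box and no NF-Y box. The LXR element was searched as a direct repeat of AGGTCA with 4 bases between the copies. No member window had it with up to 2 mismatches, and 3.02% of all windows did. Repeats with more mismatches were not searched, so no window, that of Abca1 included, is shown to lack an LXR element. A missing match says only that these letters are not in this window.

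In GRCm38, Srebf2 (ENSMUSG00000022463.8) is at chr15:82147181-82205379 on the plus strand, Insig1 (ENSMUSG00000045294.11) at chr5:28071363-28078662 on the plus strand and Insig2 (ENSMUSG00000003721.14) at chr1:121304353-121332589 on the minus strand. Scap (ENSMUSG00000032485.14) is at chr9:110333288-110384950, plus strand, and Mylip (ENSMUSG00000038175.10) at chr13:45389742-45412022, plus strand. Abca1 (ENSMUSG00000015243.4) is at chr4:53030787-53159895, minus strand. Abcg5 (ENSMUSG00000040505.13, chr17:84658234-84683011, minus strand) and Abcg8 (ENSMUSG00000024254.15, chr17:84676302-84700333, plus strand) face away from each other. Their RefSeq starts have 109 bases between them (chr17:84683012-84683120), and their annotated spans overlap. Whether the counting used strand is not given in the sources used here, so reads from that overlap may have been split between the pair.

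Before the A3B effect, the levels of the genes differed by tissue. In set 2 control livers the mean TPM was 137 for Insig2, 122 for Insig1, 84.8 for Scap, 68.9 for Abcg8 and 64.1 for Abcg5, followed by 25.0 for Srebf2, 22.8 for Abca1 and 5.04 for Mylip. With 2 controls, neighbours in this order overlapped, except that both values of Mylip were below and both of Abcg5 above those of Srebf2 and Abca1. In control pancreases Insig1 led with 15.2 TPM, Insig2 had 5.96, Srebf2 4.17, Scap 3.21, Mylip 1.73 and Abca1 1.03, and Abcg8 and Abcg5 had 0.323 and 0.243. In the A3B pancreases the mean TPM ran from 31.8 for Insig2, 27.8 for Abca1, 25.4 for Insig1, 22.8 for Mylip and 20.2 for Scap to 14.0 for Srebf2, 5.89 for Abcg8 and 5.86 for Abcg5.

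**Figure D1:**
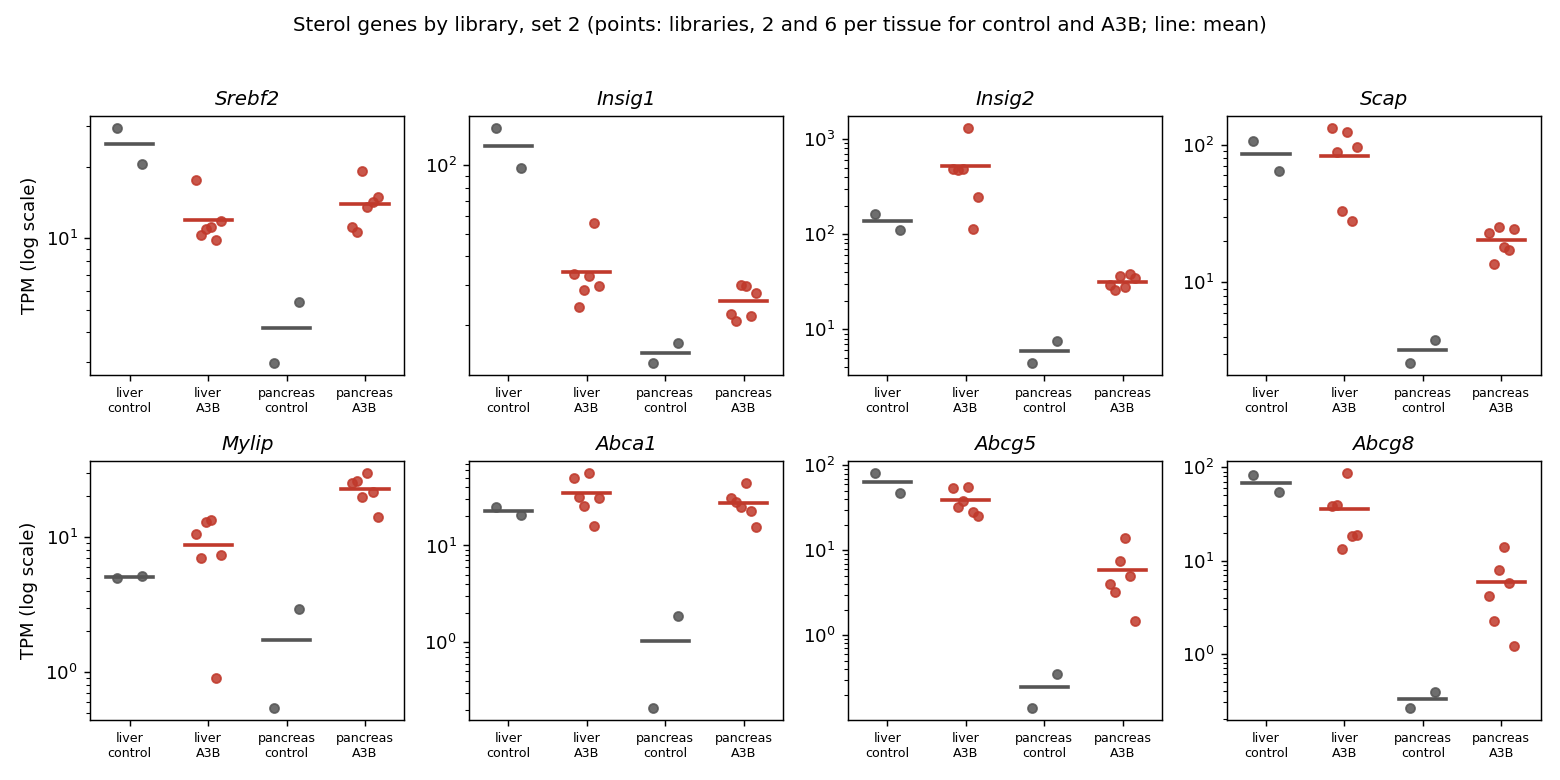
TPM of each gene in every library of set 2 on a log axis, with control (grey) and A3B (red) in liver and pancreas and the group mean as a line. In the liver the A3B points of Srebf2 and Insig1 all lie below both controls, and in the pancreas the A3B points of all 8 genes lie above both controls on this scale.

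The question in the liver was whether the sterol sensing arm and the efflux arm moved together in A3B mice. In set 2 Srebf2 and Insig1 fell, and none of the other 6 genes passed the test. Thus 2 of 8 genes were lower and 0 higher at an adjusted p under 0.05 (edgeR quasi-likelihood test), where 2.41% of 17376 genes tested were lower and 1.25% higher. With counts scaled by their totals alone the split over all genes turned to 1.39% lower and 5.05% higher, and Srebf2 and Insig1 still made 2 of 8 lower. By an unadjusted p under 0.05, 4 of the 8 differed, as did 22.9% of genes, and DESeq2 called 3 lower, with Abcg5 as the third, where it called 6.32% of genes lower and 7.49% higher. On the TPM scale only Srebf2 and Insig1 of the 8 had every A3B liver outside the range of the controls, both below it, as did 5.42% of genes, while 24.3% of genes had every A3B liver above both controls. On counts scaled by library total and TMM factors (TMM-scaled CPM), which set the bulk of genes level between libraries and underlie the edgeR fold changes, Abcg5 joined them, 3 of 8 genes with every A3B liver below both controls, as in 12.9% of genes, and none above, as in 15.0%.

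Srebf2 stood at 29.4 TPM in control liver 45 and 20.6 in control 168. The A3B livers had 17.7 (44), 11.9 (153), 11.2 (125), 11.0 (49), 10.3 (137) and 9.86 TPM (48). No A3B liver reached the lower control. The fitted level fell by 1.53 on the log2 scale (SE 0.226, edgeR adjusted p = 0.0100), which is 2.88-fold lower. This call was lost without control 45 (adjusted p = 0.130) and on log2(TPM + 1) values with limma (0.0721).

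Insig1, the SREBP2 target that closes the feedback loop, stood at 146 and 97.5 TPM in controls 45 and 168. The A3B livers had 56.0 (48), 33.5 (44), 32.7 (125), 29.5 (153), 28.4 (49) and 23.9 TPM (137). Liver 48 was the closest to the controls, and it too was below both. The fall was 2.14 on the log2 scale (SE 0.388, edgeR adjusted p = 0.0216), or 4.40-fold. Without A3B liver 44 or 137, or control 45 or 168, the adjusted p rose to between 0.0502 and 0.151, with falls of 2.06 to 2.36.

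Insig2, the paralog of Insig1 that is not driven by SREBP2, did not follow it. The A3B livers had 1311 (125), 481 (44), 480 (49), 469 (137), 244 (153) and 114 TPM (48), against 163 and 110 in controls 45 and 168. Mice other than 48 were above both controls, and liver 48 was between them. The log2 fold change was 1.62 (SE 0.771, edgeR adjusted p = 0.245), so it did not pass the test, with a 95% interval of -0.10 to 3.33, and it was 0.97 without liver 125. Scap, the escort of SREBP2, ranged from 27.7 to 132 TPM with a median of 91.7 in A3B livers, around control values of 64.2 and 105, with a log2 fold change of -0.65 (SE 0.493, adjusted p = 0.458).

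None of the LXR targets passed the edgeR test in this liver set. The signs of their log2 fold changes were mixed and were not tested against each other. Abca1 had 56.1 (125), 49.9 (44), 32.0 (137), 30.6 (153), 25.5 (49) and 15.7 TPM (48) in A3B livers against 24.9 and 20.6 in controls. All but liver 48 were above both controls on the TPM scale, while the edgeR log2 fold change, which is relative to scaled counts, was 0.09 (SE 0.368, adjusted p = 0.903). It was -0.03 without A3B liver 44, -0.17 without 125 and -0.08 without control 168. Abcg5 had 25.4 to 55.5 TPM (median 35.2) against 81.4 and 46.9, a log2 fold change of -1.13 (SE 0.293, adjusted p = 0.0630), and it passed by DESeq2 (0.00984). Abcg8 had 13.4 to 87.1 TPM (median 28.5) against 82.8 and 55.0, a log2 fold change of -1.35 (SE 0.572, adjusted p = 0.197). On TPM both parts of the ABCG5 and ABCG8 transporter overlapped with controls, through livers 44 and 125 for Abcg5 and through liver 125 for Abcg8. On TMM-scaled CPM Abcg5 did not overlap, with 37.2 to 79.3 in A3B livers against 99.2 and 138 in controls. Mylip had 13.4 (125), 13.0 (49), 10.5 (44), 7.38 (153), 6.96 (137) and 0.91 TPM (48) against 5.11 and 4.97, a log2 fold change of 0.35 (SE 0.670, adjusted p = 0.795).

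Liver 48 stood apart in several of these genes. It had, on the TPM scale, the lowest Srebf2, Insig2, Scap, Mylip and Abca1 and the highest Insig1 of the A3B livers. Liver 48 also had the lowest Insig2 and Mylip and the highest Insig1 on TMM-scaled CPM, but not the lowest Srebf2, Scap or Abca1. Its summed TPM of 8 macrophage markers was 38.5, where the other A3B livers had 406 to 1235 and the controls 375 and 437, and that of 4 endothelial markers was 5.35, where the other libraries had 31.6 to 54.3. Fibroblast markers stood at 18.5 TPM there, against 62.0 to 198 in the other livers. The part of these markers in the result was not tested. Without liver 48 the log2 fold changes were -1.60 for Srebf2, -2.53 for Insig1, 1.73 for Insig2, 0.50 for Mylip and 0.09 for Abca1, and 2 of the 8 genes passed. Hepatocyte markers (Alb, Apoa1, Apoa2, Fgb, Ahsg and Tat) summed to 44369 to 105010 TPM in A3B livers and to 102040 and 160940 in controls, so the labelled tissue was present in all 8. Ductal markers summed to 211 to 488 TPM in the A3B livers other than 48, which had 79.0, and to 139 and 95.3 in controls. Adipocyte markers summed to 14.3 to 89.0 TPM in the A3B livers other than 48, which had 7.73, and to 12.9 and 5.81 in controls. The part of both lists in the results was not tested. Here fewer cells of a type and less RNA per cell cannot be told apart in these bulk samples.

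In set 1, whose liver values come from a table of TPM per gene with a different quantification, Insig1 fell again and was the 1 gene of 8 to pass. Here 1.86% of 11495 genes were lower and 6.07% higher (limma on log2(TPM + 1), adjusted p under 0.05). In this table TPM cannot be compared between genes, since its gene lengths are not known. Samples were not scaled beyond TPM, and the median log2 fold change over all genes tested was 0.39. The fold changes of set 1 are therefore not on the TMM scale of set 2. Controls 92, 11 and 91 had 135, 130 and 86.2 TPM of Insig1, and A3B livers 70, 23 and 28 had 37.3, 24.8 and 10.6. The groups did not overlap, and the fall was 2.36 on the log2(TPM + 1) scale (SE 0.477, limma adjusted p = 0.0372). The call was lost without control 11 (adjusted p = 0.0563), 91 (0.130) or 92 (0.178), without A3B liver 23 (0.0946) and with no filter on low values (0.0809), with falls of 2.24 to 2.56. Liver 28, the lowest in Insig1, stood apart in other markers, with a summed 765 TPM for the ductal and 215 TPM for the adipocyte list, where the other livers of set 1 had 105 to 157 and 14.7 to 39.6. Without it the fall was 1.88 (limma adjusted p = 0.0320). Adipocyte markers were higher in every A3B liver (30.6, 39.6 and 215 TPM in livers 70, 23 and 28) than in the controls (14.7 to 19.3 TPM). Alveolar type II markers summed to 238 to 931 TPM in A3B livers and to 697 to 1915 in controls, and acinar markers to 9.63 to 9.97 against 54.0 to 121. Hepatocyte markers were at 7159 to 9982 TPM in A3B livers and 8504 to 12305 in controls. The part of these lists in the fall of Insig1 was not tested.

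Abca1 had a positive log2 fold change in set 1 and did not pass the test with all livers. A3B livers 70, 28 and 23 had 553, 418 and 364 TPM, and controls 11, 91 and 92 had 322, 82.9 and 80.1. Control 11, the liver labelled with both transgenes, was near the A3B range, and the others were far below it. The log2 fold change was 1.76 (SE 0.560, limma adjusted p = 0.0852), and without control 11 it was 2.41 with an adjusted p of 0.0218. Abcg8 was lower in every A3B liver (882, 752 and 445 TPM against 1972, 1321 and 1200), with a log2 fold change of -1.13 (SE 0.372, limma adjusted p = 0.0901). Abcg5 was likewise below all controls, with 106, 98.9 and 43.9 TPM against 144, 142 and 136, and a log2 fold change of -0.85 (SE 0.393, adjusted p = 0.176). Neither passed the test.

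Of the remaining genes of set 1 liver, Scap had 2.62 to 6.11 TPM in A3B livers and 6.83 to 8.12 in controls (log2 fold change -0.58, SE 0.350, limma adjusted p = 0.282). Srebf2 had 16.7 to 40.2 TPM against 37.1 to 54.7, overlapping through A3B liver 28 (log2 fold change -0.80, SE 0.386, adjusted p = 0.191). Insig2 had 1365 to 4203 TPM against 928 to 1971 (log2 fold change 0.80, SE 0.513, adjusted p = 0.305). Mylip averaged under 1 TPM and was not tested, with 0.77 to 1.10 TPM in A3B livers and 0.25 to 0.47 in controls. By groups alone, 4 genes (Insig1, Scap, Abcg5 and Abcg8) had every A3B liver below every control and 2 (Mylip and Abca1) above, where 10.3% and 28.5% of genes tested did so.

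**Figure D2:**
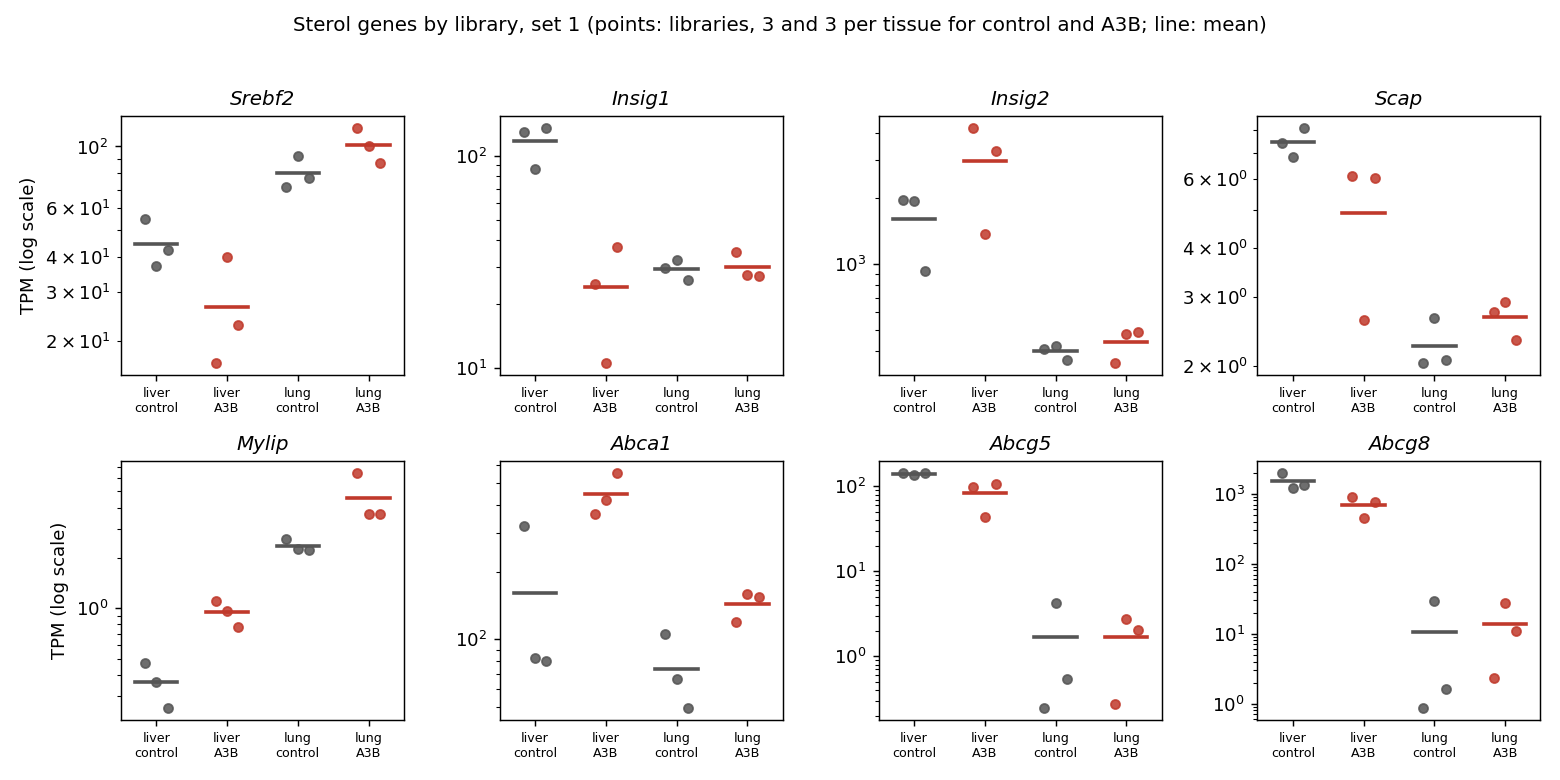
TPM of each gene in every library of set 1 on a log axis, with 3 controls (grey) and 3 A3B samples (red) in liver and lung and the group mean as a line. Insig1 separates the livers and not the lungs, and Abca1 and Mylip are higher in all A3B lungs than in the controls.

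The pancreas was compared to see whether the pattern is shared by the other organ of the same mice. Mylip, Abca1 and Abcg5 rose and Insig1 fell, which makes 3 of 8 genes higher and 1 lower by edgeR, where 17.0% of 19142 genes were higher and 14.9% lower. The scale decides part of this. In the control pancreases 59.7% and 62.4% of the counts fell on just 10 genes, and in the A3B pancreases the top 10 held 12.1% to 20.6%, and 7 acinar enzyme genes summed to 335960 and 347100 TPM in controls and to 46038 to 141920 in A3B mice. On the TPM scale all 8 genes had every A3B pancreas above both controls, and so did 70.8% of genes, with 1.07% below. On counts scaled by TMM factors Mylip, Abca1 and Abcg5 had every A3B pancreas above both controls, as 25.1% of genes did. Insig1, Insig2 and Srebf2 had every A3B pancreas below both on that scale, as 18.9% of genes did, and Srebf2, Insig1 and Insig2 thus change direction between the scales.

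Abca1 had 43.8 (125), 31.2 (44), 28.3 (53), 25.1 (49), 22.9 (137) and 15.4 TPM (153) in A3B pancreases and 1.86 and 0.21 in controls 168 and 45. The groups were far apart on TPM, and on the TMM scale the rise was 6.07-fold (log2 fold change 2.60, SE 0.565, edgeR adjusted p = 0.00710). The log2 fold change was 2.02 without control 45 and 3.69 without control 168, the lowest and highest with 1 library left out, and Abca1 also passed by total scaling, where it rose with most other genes. Mylip had 29.8 (125), 26.2 (53), 25.3 (44), 21.5 (137), 19.8 (49) and 14.0 TPM (153) against 2.91 and 0.54, a rise of 3.39-fold on the TMM scale (log2 fold change 1.76, SE 0.400, edgeR adjusted p = 0.00808). Without control 45 it no longer passed (1.30, adjusted p = 0.0595), and without control 168 it was 2.51.

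Abcg5 and Abcg8 were close to nothing in control pancreases. Abcg5 stood at 21 and 49 estimated counts (0.14 and 0.35 TPM) in controls 45 and 168, and at 14.0 (125), 7.52 (49), 4.99 (137), 3.96 (44), 3.23 (53) and 1.47 TPM (153) in A3B mice. Pancreas 125 was well above the others, and the rise of 2.49 on the log2 scale (SE 0.746, edgeR adjusted p = 0.0288) was lost without control 45 (0.134), without control 168 (0.124) and without A3B pancreases 44 and 137 (0.0723). Abcg8 followed the same order of mice with 14.1, 7.86, 5.81, 4.13, 2.24 and 1.21 TPM against 0.39 and 0.26, with a log2 fold change of 1.60 (SE 0.880, adjusted p = 0.196). Across the 8 pancreases the log2(TPM + 1) values of Abcg5 and Abcg8 had r = 0.99, as a description of libraries that share the scaling. Hepatocyte markers in these pancreases were highest in 44 and 49 (1061 and 1046 TPM) and were 87.4 TPM in 125, the library with the most Abcg5 and Abcg8.

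Insig1 had 20.9 to 30.0 TPM in A3B pancreases and 16.7 and 13.7 in controls. On the TMM scale this is a fall of 1.53 on the log2 scale (SE 0.256, edgeR adjusted p = 0.00176), or 2.89-fold, while scaling by total counts gave a log2 fold change of 0.84 (adjusted p = 0.0101) in the opposite direction. Without control 45 the TMM value was -0.90 (adjusted p = 0.0340) and without control 168 it was -1.95. Srebf2 had 10.7 to 19.3 TPM against 5.36 and 2.97 and a log2 fold change of -0.25 (SE 0.194, adjusted p = 0.353) on the TMM scale, and 1.97 by total counts. Insig2 had 26.0 to 37.8 TPM against 7.48 and 4.44, -0.59 (SE 0.213, adjusted p = 0.0582) on the TMM scale and 1.66 by total counts, and it passed as lower by DESeq2 (-0.63, 0.0377), without A3B pancreas 137 (-0.68, edgeR adjusted p = 0.0291) and without 44 and 137 (-0.66, 0.0477). Scap had 13.6 to 25.2 TPM against 3.82 and 2.61, with a log2 fold change of 0.35 (SE 0.297, adjusted p = 0.386). Beside all of these, the macrophage markers summed to 1889 to 5601 TPM in A3B pancreases against 48.4 and 561 in controls, fibroblast markers to 930 to 1419 against 37.5 and 167, ductal markers to 733 to 1652 against 82.4 and 123, endothelial markers to 52.9 to 84.8 against 7.08 and 16.2, and endocrine markers to 3594 to 13090 against 3400.5 and 3473. In each of these lists the A3B and control ranges did not overlap, with control 168 above control 45 in all 5, as in the TPM of all 8 genes. T cell, B cell and adipocyte markers did overlap, with 12.3 to 142, 2.41 to 81.0 and 138 to 1067 TPM in A3B pancreases. Control 168 had 56.6, 63.8 and 635 TPM of them, and control 45 had 2.23, 0.566 and 51.3. These sums are on the TPM scale, on which 70.8% of all genes had every A3B pancreas above both controls. Their part in the rise of Abca1, Mylip and Abcg5 was not tested.

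**Figure D3:**
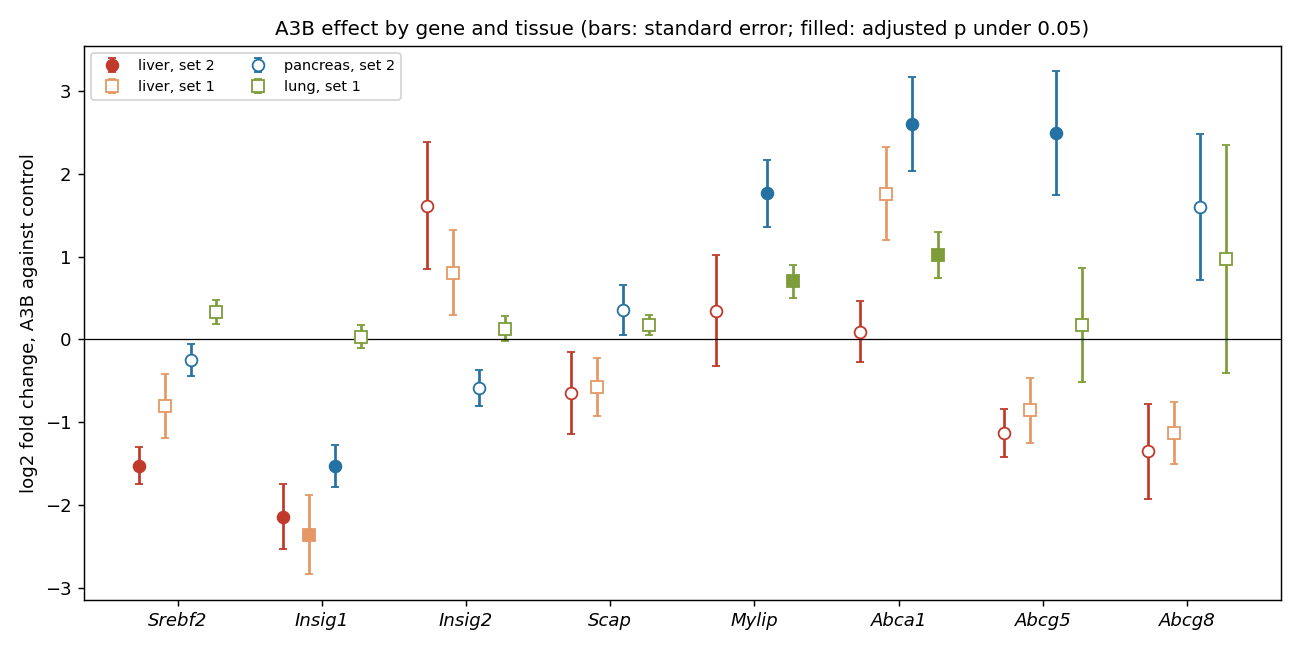
Log2 fold change of A3B against control for each gene, from edgeR on TMM-scaled counts (circles, set 2) and from limma on log2(TPM + 1) (squares, set 1), with standard errors as bars and filled symbols for an adjusted p under 0.05. Insig1 is below 0 in both liver sets and the pancreas and near 0 in the lung, and Abca1 is above 1 in the pancreas, the set 1 liver and the lung and near 0 in the set 2 liver. Circles and squares are on different scales.

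The ratio of genes within a library does not depend on how libraries are scaled. The log2 ratio of Insig1 to Abca1 was 2.55 and 2.24 in control livers of set 2 and -0.78 to 1.83 in A3B livers, with liver 48 at the top. In the pancreas it was 6.04 and 3.16 in controls and -0.56 to 0.84 in A3B mice. In set 1 liver it was -1.31 to 0.75 in controls, with liver 11 the lowest, and -5.30 to -3.88 in A3B mice. In the lung the ranges overlapped, with -1.83 to -0.93 in controls and -2.53 to -1.76 in A3B mice. The ratio was thus lower in every A3B liver and pancreas than in any control of the same tissue and set. The same held for the ratio of Insig1 to 71.4% of other genes in set 2 liver, 61.6% in pancreas and 87.3% in set 1 liver, so this separation is not particular to Abca1. The ratio to Abcg5 separated the pancreases (5.59 and 6.62 in controls, 1.08 to 4.23 in A3B mice) and the set 1 livers (-0.66 to -0.09 and -2.05 to -1.51), and overlapped in the set 2 livers, where liver 48 had 0.97 against 1.06 and 0.84 in controls. The ratio of Insig1 to Insig2 was -0.18 and -0.16 in the set 2 control livers and -5.33 to -1.03 in the A3B livers, the 2 controls thus holding nearly equal amounts of both paralogs per length.

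**Figure D4:**
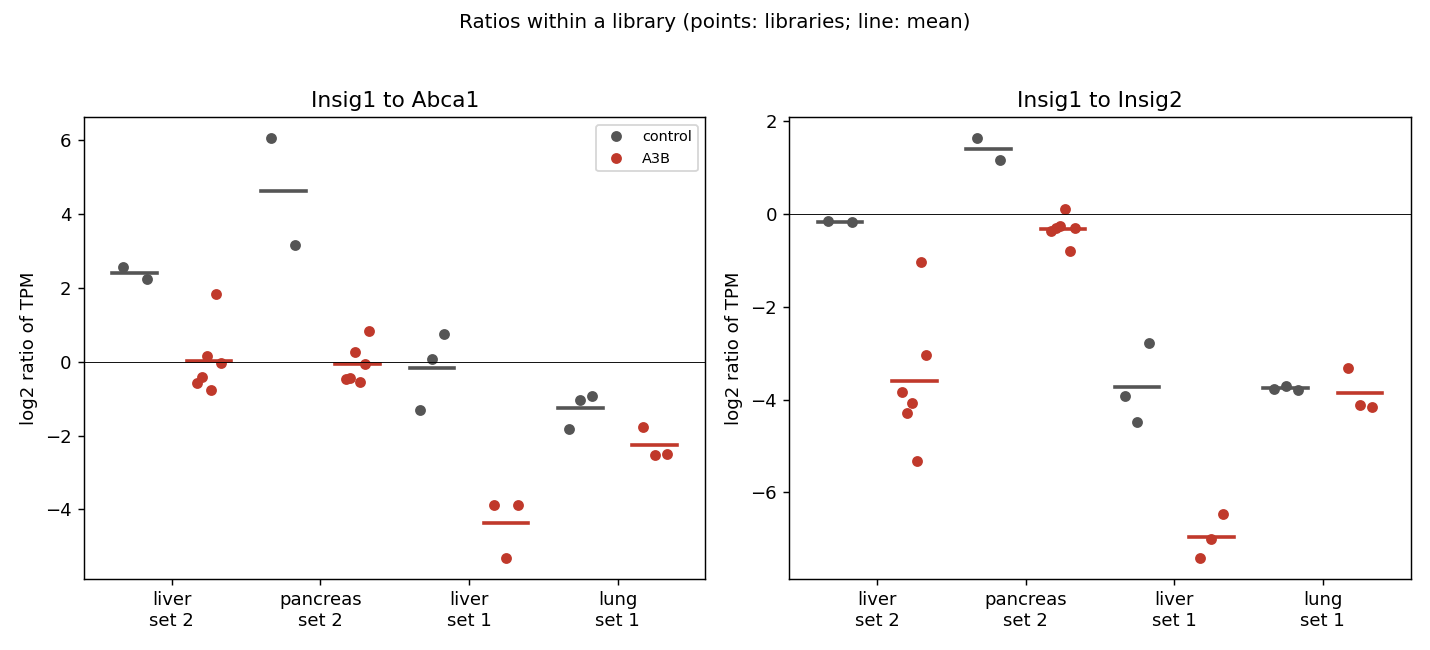
Log2 ratio of TPM of Insig1 to Abca1 (left) and of Insig1 to Insig2 (right) in every library, by tissue and set, with controls in grey, A3B in red and the group mean as a line. Every A3B liver and pancreas is below the controls of its tissue and set in both panels, and the lung groups overlap.

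Insig2 was split by the start of its 14 annotated transcripts. The upstream start (2 transcripts, from 121332550 and 121332589) carried 56.2 and 84.1 TPM in control livers 168 and 45 and 127 (153), 224 (49), 269 (44), 284 (137) and 715 TPM (125) in A3B livers, but 6.33 TPM in liver 48. The downstream starts (8 transcripts, from 121327678 to 121328024) carried 53.1 and 70.4 TPM in controls and 95.4 to 457 TPM in A3B livers, liver 48 being the lowest of these and still above both controls. The upstream share of Insig2 was 50.9% and 51.7% in control livers, 46.6% to 60.6% in A3B livers other than 48 and 5.53% in liver 48. In the pancreas the upstream start had at most 2.43 TPM in any library, and the downstream starts held 67.7% to 86.0% of Insig2 in A3B mice and 93.5% and 94.6% in controls. The split of reads among overlapping transcripts is an estimate by kallisto, and no test was made.

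**Figure D5:**
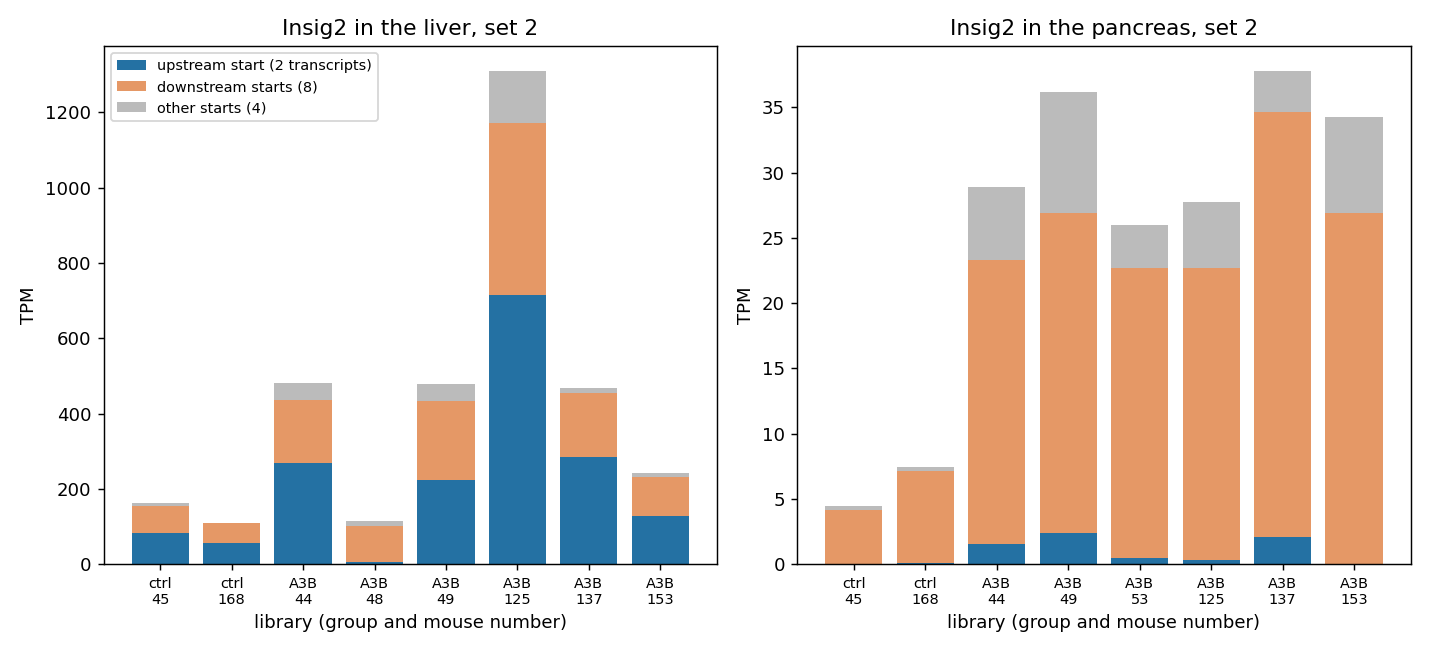
Insig2 TPM in each library of set 2, stacked by the annotated start of the transcripts, in liver (left) and pancreas (right) with different axes. The upstream start makes up about as much as the downstream starts in the livers other than 48, and hardly appears in the pancreases.

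The lung was compared to see whether the LXR targets rose in an organ with less of the A3B transcript than the liver. Abca1 and Mylip rose, and Abcg5 (log2 fold change 0.17, limma adjusted p = 0.864) and Abcg8 (0.97, 0.613) did not pass. That makes 2 of 8 genes higher and 0 lower, where limma called 16.1% of 13634 genes higher and 20.8% lower. Abca1 had 159, 155 and 120 TPM in A3B lungs 70, 74 and 69 and 105, 66.9 and 49.4 in controls 87, 88 and 91. The groups did not overlap, and the log2 fold change was 1.02 (SE 0.277, limma adjusted p = 0.0305). Mylip had 6.45, 3.68 and 3.65 TPM against 2.60, 2.25 and 2.23, a log2 fold change of 0.70 (SE 0.197, limma adjusted p = 0.0323). With no filter on low values neither passed (0.0544 for Abca1 and 0.0574 for Mylip). Nor did Abca1 pass without control 88 or 91 or any A3B lung (0.0523 to 0.0886), or Mylip without any control (0.0586 to 0.0951). These were the 2 genes with every A3B lung above every control, as in 23.4% of genes, and none had every A3B lung below, as in 30.6%. Macrophage markers were lower in the A3B lungs (1071 to 1245 TPM) than in the controls (1344 to 1426 TPM), as were T cell markers (100 to 129 against 139 to 234 TPM). Lung 70, with the most Abca1, had 617 TPM of adipocyte markers, where the other lungs had 74.1 to 207. The part of these lists in the rise of Abca1 and Mylip was not tested.

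The sensing genes of the lung stayed close to the controls. Insig1 had 27.2 to 35.4 TPM in A3B lungs and 26.0 to 32.4 in controls, with a log2 fold change of 0.03 (95% interval -0.30 to 0.36, limma adjusted p = 0.882). Srebf2 had 87.0 to 117 TPM against 71.7 to 92.6 (0.33, SE 0.146, adjusted p = 0.117), Insig2 352 to 488 against 363 to 422 (0.13, adjusted p = 0.525) and Scap 2.34 to 2.91 against 2.04 to 2.66 (0.17, adjusted p = 0.296). Abcg5 (0.25 to 4.30 TPM) and Abcg8 (0.87 to 29.5 TPM) varied within both groups. Both were highest in lungs 88, 70 and 74, which also had the most hepatocyte markers (868, 723 and 800 TPM), while lungs 87, 69 and 91 had 4.46 to 74.4 TPM. The part of those markers in Abcg5 and Abcg8 was not tested.

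Whether the A3B effect differed between tissues was tested as an interaction. Between pancreas and liver of set 2, 3 of 8 genes had a more positive effect in the pancreas and 0 a more negative one by edgeR, where 6.87% and 5.02% of 19927 genes did (39.4% and 1.12% with counts scaled by their totals). These were Srebf2 (difference of log2 fold changes 1.44, SE 0.287, adjusted p = 0.00746), Abca1 (2.66, SE 0.658, adjusted p = 0.0185) and Abcg5 (3.77, SE 0.767, adjusted p = 0.00810). Insig1 fell in both tissues on this scale, with a difference of 0.77 (95% interval -0.32 to 1.87, adjusted p = 0.341). Insig2 had the 1 negative difference of the 8, -2.04 (SE 0.796, adjusted p = 0.103), which passed by DESeq2 (-2.13, 0.0443) and without mouse 48 (-2.23, edgeR adjusted p = 0.0476) and was -0.35 with counts scaled by their totals. Scap had 1.17 (adjusted p = 0.227) and Mylip 1.58 (0.220). Abcg8 had a difference of 3.10 (adjusted p = 0.0782), which passed with the mouse as a block (3.20, adjusted p = 0.0247). Without mouse 45, a control in both tissues, none of the 8 passed by edgeR (3 had an unadjusted p under 0.05), with adjusted p of 0.150 for Srebf2, 0.238 for Abca1 and 0.144 for Abcg5, and without control 168 Abcg5 had 0.0667. The difference for Abca1 was 1.97 without mouse 45 and 3.87 without mouse 168. Between lung and liver of set 1, Insig1 alone passed by limma, with a difference of 2.39 (SE 0.526, adjusted p = 0.0194), 1 of 8 genes more positive in the lung and 0 more negative, against 1.94% and 8.82% of 13461 genes. This call was lost without mouse 91 (0.0913), 92 (0.0575) or 69 (0.0578). Srebf2 had a difference of 1.13 (adjusted p = 0.0991), and 0.0487 with the mouse as a block. Abcg8 had 2.11, Abcg5 1.03, Scap 0.75, Mylip 0.18, Insig2 -0.67 and Abca1 -0.74, with adjusted p of 0.172 to 0.651.

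The wider pathway was followed with 4 lists of other genes. Of 20 enzymes of cholesterol synthesis, which SREBP2 drives, 7 were lower and 0 higher in set 2 liver, where 2.41% and 1.25% of all genes were, with a median log2 fold change of -2.03 against 0.21 over all genes tested. In set 1 liver 13 were lower and 0 higher, against 1.86% and 6.07% of all genes (median -2.19 against 0.39). These counts rest on single libraries. In set 2 the count was 1 without control 45, 2 without control 168 or A3B liver 137, 4 without 44 and 14 without 48. In set 1 none passed by limma without control 91 or 92, without A3B liver 23 or with no filter on low values (16 or 17 at an unadjusted p under 0.05), while the median stayed between -2.65 and -2.08 whichever library was left out. Sc5d, a sterol desaturase of the last steps, was at 33.3 to 63.0 TPM in A3B livers of set 2 and 131 to 269 in controls, with a log2 fold change of -2.30 (edgeR adjusted p = 0.0172), and it changed by -2.54 in set 1 (limma adjusted p = 0.0180). Pmvk, which makes mevalonate diphosphate, had -2.91 in set 2 liver (edgeR adjusted p = 0.00444), and the sterol reductase Tm7sf2 had -3.51 (0.0131). Mvd and Mvk, enzymes of the mevalonate steps, had -2.78 and -2.16 in set 1 liver (limma adjusted p = 0.0198 and 0.0201). In the lung, where 20.8% of genes were lower and 16.1% higher, 10 of the 20 were lower and 3 higher, with a median of -0.36 against -0.06, and Mvk, Msmo1 and Tm7sf2 had -0.83, -0.75 and -0.82 (adjusted p = 0.00315 to 0.00340). Pmvk, named for the lung after its values were seen, rose there by 2.48 (limma adjusted p = 0.00415), from 105 to 211 TPM in controls to 641 to 1126 in A3B lungs. In the pancreas 5 were lower and 1 higher on the TMM scale, where 14.9% and 17.0% of all genes were (median -0.49 against 0.09), and this turned with the scale, since by total counts 18 were higher and 0 lower, with 70.4% of all genes higher and 1.10% lower. Without control 45, 1 was lower and 0 higher. Idi1, an isomerase of the isoprenoid steps, had -1.94 there on the TMM scale (edgeR adjusted p = 0.00131), Tm7sf2 -1.83 (0.00702) and Hsd17b7, a sterol ketoreductase, 1.43 (0.0119), and by total counts Idi1 had 0.23 and Tm7sf2 0.52. All 20 had a positive difference of pancreas against liver and of lung against liver, and 7 and 12 of them passed the test, against 6.87% and 1.94% of all genes. Between pancreas and liver 14 passed without mouse 48, 4 without 44 or 53, 3 without 137 or 168 and 0 without 45 (7 at an unadjusted p under 0.05 by edgeR), and between lung and liver 6 without mouse 69, 7 without 92 and 1 without 91. Pmvk had the smallest p in both, with 2.80 (edgeR adjusted p = 0.00184) and 5.22 (limma adjusted p = 0.00343). Hsd17b7 (2.02) and Sc5d (2.24) followed in the pancreas and Nsdhl (1.83) and Sc5d (2.20) in the lung, with adjusted p of 0.00541 to 0.0116.

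Among 12 LXR genes and further targets the liver gave 1 lower and 0 higher in each set, where 2.41% (set 2) and 1.86% (set 1) of all genes were lower, and that gene was Srebf1, which encodes the lipogenic factor SREBP1. The list's median log2 fold change was -0.21 against 0.21 over all genes in set 2 and -0.18 against 0.39 in set 1. It fell from 225 and 69.4 TPM in set 2 control livers to 8.71 to 26.8 TPM in A3B livers (log2 fold change -3.65, edgeR adjusted p = 0.00389), and by 2.20 in set 1 (limma adjusted p = 0.0267), a call lost without control 91 or 92 or A3B liver 23 and with no filter on low values. Next by p, and not past the threshold, were Lpl (2.20, edgeR adjusted p = 0.114) and Smpdl3a (-0.88, 0.271) in set 2 and Cyp7a1, the first enzyme of bile acid synthesis (-3.62, limma adjusted p = 0.105), and Nr1h3 (-1.08, 0.169) in set 1. In the pancreas 5 of 12 were higher and 1 lower, where 17.0% and 14.9% of all genes were, with a median log2 fold change of 1.01 against 0.09. Pltp, a phospholipid transfer protein, had 2.37 (edgeR adjusted p = 0.00261), the acyltransferase Lpcat3 had 1.51 (0.00222) and the phosphodiesterase Smpdl3a had -1.48 (0.00237) on the TMM scale. By total counts Smpdl3a had 0.83, and all 12 were higher. In the lung 2 of 11 were higher and 2 lower, close to the 16.1% and 20.8% of all genes, with a median of 0.21 against -0.06, among them Lpl, lipoprotein lipase, with 1.16 (limma adjusted p = 0.00909), Arl4c with 0.50 (0.00909) and Nr1h3, which encodes LXR alpha, with -0.41 (0.0269). With 1 library left out, 2 to 4 of the list passed in the lung. The difference between pancreas and liver passed the test in 5 of 12, all positive, where 6.87% of genes did, with the smallest p for Srebf1 (4.18, edgeR adjusted p = 0.000889), Rxra, the partner of LXR (2.50, 0.0104), and Lpcat3 (2.39, 0.0105), and that between lung and liver in 1 of 12, again Srebf1 (2.42, limma adjusted p = 0.00700), followed by Cyp7a1 (3.37, 0.178) and Arl4c (0.75, 0.267). Without mouse 45 or 168 the count for pancreas against liver was 1.

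Of 11 genes for SREBP processing and INSIG turnover, Srebf1 was the 1 called gene in either liver set. The proteases of SREBP did not pass there, Mbtps1 having -1.11 (edgeR adjusted p = 0.0654) in set 2 liver and Mbtps2 1.04 (limma adjusted p = 0.159) in set 1. Ufd1 had 0.84 (0.108) and 1.18 (0.0676) in these sets. In the pancreas Faf2, Vcp and Ufd1, which help extract proteins from the endoplasmic reticulum, rose by 1.02, 1.06 and 0.61 on the log2 scale (edgeR adjusted p = 0.0134, 0.0469 and 0.0487). That is 3 of 11, where 17.0% of all genes were higher, with a median of 0.36 against 0.09, and 1 or 2 passed with any library left out. None of the list passed by limma in the lung (2 at an unadjusted p under 0.05). By total counts all 11 were higher in the pancreas. The difference between pancreas and liver passed the test in 4 of 11, all positive, where 6.87% of genes did, with Vcp at 1.94 (edgeR adjusted p = 0.0253) and Mbtps1 at 1.33 (0.0278) beside Srebf1. The count was 1 without mouse 45, 137 or 168 and 2 without 44 or 125. Between lung and liver Srebf1 passed, and Ufd1 had -0.93 (limma adjusted p = 0.0969) and Mbtps1 0.49 (0.297).

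Of 19 genes of sterol uptake, transport and storage, 3 were lower and 0 higher in set 2 liver, where 2.41% of genes were lower, with a median of -0.24 against 0.21, and none passed without control 45 or 168 (5 and 6 at an unadjusted p under 0.05 by edgeR). None of 17 tested passed by limma in set 1 liver (4 at an unadjusted p under 0.05). The cholesterol carrier Stard4 had -3.62 (edgeR adjusted p = 0.0142), Abcb11, the bile salt export pump, -2.09 (0.0162) and Soat2, which esterifies cholesterol, -1.17 (0.0206). In the pancreas 9 of 19 were higher and 0 lower, against 17.0% and 14.9% of all genes (median 0.85 against 0.09), with the ester hydrolase Nceh1 at 1.91 (0.000615), the endocytic receptor Lrp1 at 2.17 (0.00246) and Npc1, the lysosomal cholesterol exporter, at 1.55 (0.00339). By total counts 17 were higher, and without control 45, 4 were higher and 1 lower by TMM. In the lung 3 of 16 were higher and 1 lower, where 16.1% and 20.8% of all genes were, and the median was 0.11 against -0.06, with Vldlr at 0.79 (limma adjusted p = 0.00355), Npc1 at 0.91 (0.00612) and Stard4 at -0.61 (0.00969). Between pancreas and liver 5 of 19 passed the test, all positive, where 6.87% of genes did, with the smallest p for Lrp1 (3.67, edgeR adjusted p = 0.00145), the HDL receptor Scarb1 (2.26, 0.00623) and the lysosomal lipase Lipa (2.84, 0.00970). The count was 2 without mouse 168 and 0 without 45 (6 of the list at an unadjusted p under 0.05 by edgeR).

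Across the 8 livers of set 2, which share the group difference, the genes of this group fell into a few patterns by Pearson r of log2(TPM + 1). Srebf2 and Insig1 had r = 0.81, and Insig1 and Insig2 had r = -0.69. Insig2 ran with Abca1 (r = 0.87) and Mylip (r = 0.80), and Abcg5 with Abcg8 (r = 0.78) and with Srebf2 (r = 0.78). Among the 12317 genes that averaged 1 TPM or more in these livers, the pattern of Insig1 was most like that of Gas1 (r = 0.997), Nsdhl (0.989), an enzyme of the synthesis list, and the pseudogene Mup-ps16 (0.985). Srebf2 was most like Decr2, Rnf43 and Hsd17b2 (0.972 to 0.987), Insig2 like Epn2, Pnpla2 and Arrdc4 (0.979 to 0.990) and Scap like Erap1, Ganab and Dgcr2 (0.976 to 0.980). Mylip was most like Eif3b, Adgrg3 and Hmox1 (0.985 to 0.987) and Abca1 like Mtmr3, Vps4a and Carm1 (0.987 to 0.990). The values were lower for Abcg5 with Eepd1 and Guf1 (0.920 and 0.912) and for Abcg8 with Fgg, Slc27a2 and Pdk1 (0.918 to 0.944).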

How the data were processed

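Total RNA of liver, pancreas and lung was sequenced from stranded libraries. For set 2 the authors deposited kallisto output against mm10, an estimated count and a TPM for each of 119414 transcripts. For set 1 a single deposited table gives gene-level TPM, derived by the authors from read counts with GenomicAlignments and GenomicFeatures. The column names of that table point to sorted alignments with duplicate reads removed. The study's methods name STAR for aligning reads to mm10 before variant calling. Whether the table rests on the STAR alignments, and its gene lengths, are not given in the sources used here. Its depth is unknown.

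For this report 97.8% of the set 2 transcripts were assigned to genes with GENCODE M21, and both values were added up over the transcripts of a gene, with counts then rounded. Unassigned transcripts held 0.225% to 1.46% of the counts. edgeR 4.0.16 in R 4.3.3 served for filtering (filterByExpr), TMM scaling and the quasi-likelihood test with robust dispersions, and DESeq2 1.42.0 was an alternative. The SE of an edgeR fold change is its size divided by the square root of F, and 95% intervals use the t quantile at the degrees of freedom of the test. In set 1, 4 rows with repeated names and 22 rows with a date as name were left out, and genes that averaged 1 TPM or more over the samples of a fit were tested as log2(TPM + 1) with limma 3.58.1 (trend, robust), so folds of low genes are understated. P-values were adjusted by Benjamini-Hochberg over all genes tested, with a threshold of 0.05. All tests were two-sided. The scripts were tested on simulated data. Other settings were total scaling, no filter, limma on TPM in set 2, a pseudocount of 0.1 in set 1, leaving out each library or mouse, leaving out pancreases 44 and 137, and a mouse block. Total scaling of the gene lists in pancreas was added after seeing the data.

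Liver and pancreas of 7 mice of set 2 came from the same animals, as the mouse numbers in the titles show, and their deviations from the group means had correlations of -0.004 to 0.28. In set 1 only mice 70 and 91 gave both tissues.

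The text names the 8 genes in each comparison, the 3 genes with the smallest p of each list in a comparison where any passed, and the 3 genes most like each in the livers of set 2. For Abcg5 only 2 of those 3 are reported here, and Pmvk in lung was added after its values were seen. The 8 genes and the lists were chosen with earlier results of these data known. Marker lists for hepatocyte, acinar, ductal, endocrine, macrophage, T, B, fibroblast, endothelial, alveolar type II and adipocyte cells were summed as TPM. Figures were drawn with matplotlib.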

Additional observations from a re-analysis of the deposited data

Results flagged for a closer look

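The A3B values of set 2 form 16 groups of 6, 8 genes in liver and in pancreas. In 4 of them, all in the liver, the highest TPM lay far from the rest, judged by its gap to the next value as a share of the range. The groups of a tissue share the same 6 libraries and are not independent, so no chance rate is set beside this count. The highest Srebf2, 17.7 TPM in A3B liver 44, the highest Insig1, 56.0 TPM in A3B liver 48, and the highest Insig2 and Abcg8, 1311 and 87.1 TPM in A3B liver 125, stood apart from the other A3B livers.

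The A3B effect differed between tissues for 4 genes by an interaction test. The log2 fold change was higher in pancreas than in liver by 1.44 for Srebf2, by 2.66 for Abca1 and by 3.77 for Abcg5 (edgeR adjusted p = 0.00746, 0.0185 and 0.00810). With 1 mouse left out these were 1.26 to 1.62, 1.97 to 3.87 and 3.45 to 4.03, and as given above the calls depend on single mice. In set 1 the log2 fold change was higher in lung than in liver by 2.39 for Insig1 (limma adjusted p = 0.0194), a call lost without mouse 91, 92 or 69. All 6 A3B pancreases had more Abca1 and Abcg5 than both controls, as in 70.8% of genes on TPM and 25.1% on TMM-scaled CPM, and all 3 A3B livers of set 1 had less Insig1 than every control, as in 10.3% of genes.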

How the results depend on the processing

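In pancreas, scaling by total counts and limma on log2(TPM + 1) turned the log2 fold change to 1.97 and 1.55 for Srebf2, 0.84 and 0.70 for Insig1 and 1.66 and 2.26 for Insig2, called 8 of 8 genes higher by either, and called 13693 and 11557 genes in all. Of the list genes, total scaling, chosen for them after seeing the data, turned Idi1 to 0.23, Tm7sf2 to 0.52 and Smpdl3a to 0.83. In set 2 liver, limma on log2(TPM + 1) called 1 of 8, and of all genes DESeq2 called 2401 (1302 higher, 1099 lower) and total scaling 1119 (878 and 241), against 636 by edgeR (218 and 418). With no filter on low values, 0 of 8 passed by limma in set 1 liver and 0 in lung (4 and 2 at an unadjusted p under 0.05), and 54 genes in all passed in set 1 liver. For the difference of pancreas and liver, DESeq2 called 5 (4 positive and 1 negative, Insig2) and total scaling 7 of 8, all positive, and 3763 and 8071 genes in all. With mouse as a replicate block, 4 of 8 and 1615 genes passed between pancreas and liver, and 2 of 8 and 2602 genes between lung and liver. The block changed no other call among the 8. The difference for Mylip between lung and liver was -0.31 with a pseudocount of 0.1, and the cause was not tested in any of these. Leaving out 1 library or mouse gave 0 to 3 of 8 genes in set 2 liver (73 to 1596 genes in all), 2 to 5 in pancreas (3826 to 5822), 0 to 1 in set 1 liver (1 to 1562, the fewest without control 91, with 9 without control 92), 0 to 1 in lung (2994 to 4577), 0 to 4 for pancreas against liver (83 to 2958, the fewest without mouse 45) and 0 to 2 for lung against liver (169 to 2822). Signs turned in this way for Abca1 in set 2 liver (-0.17 to 0.14), Insig1 in lung (-0.089 to 0.10), Abcg5 in lung (-0.23 to 0.82) and Mylip between lung and liver (-0.041 to 0.30). With 2 controls, no left-out control leaves a spread of its own, and the lone control is assumed to vary like the A3B group.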
